A study of Mus musculus with 8 samples.

Results

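The microglial genes examined here are 9 genes taken by name from the gene count table of the mouse retina, namely *Cx3cr1*, *P2ry12*, *Csf1r*, *Trem2*, *Tmem119*, *Aif1*, *C1qa*, *C1qb* and *C1qc*. All 9 were found among the 54532 genes of the table, and all 9 were among the 17998 genes tested after genes with few counts were left out. RNA-seq was performed on 8 retinal samples, 4 of *Six3-Cre*+; *Mettl3* floxed/floxed mice, referred to as *Mettl3*-CKO, and 4 of their littermate controls, whose own alleles are not given in the sources used here. The labels and the results section of the study give the age as postnatal day 7, and its methods give day 6. *Mettl3* encodes the catalytic subunit of the complex that writes *N*6-methyladenosine (m6A) on mRNA, and *Six3-Cre* recombines in retinal progenitor cells. The labels name no treatment, and whether a sample is 1 retina or several is not stated, so p-values measure the spread between these samples.

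Microglia are the resident macrophages of the retina and brain. They descend from yolk sac progenitors that enter the neural tissue in the embryo, and not from the retinal progenitor cells that give rise to neurons and Müller glia. In the postnatal retina they are known for engulfing dying cells and surplus synapses, partly guided by complement, and for contact with the growing vessels. They live on signals through the CSF1 receptor, sense neurons through the fractalkine receptor CX3CR1 and nucleotides through P2RY12, and make most of the C1q of neural tissue.

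Total counts ranged from 16227095 to 20281517 per sample, so that 3 counts, taken as the floor for detection, correspond to between 0.148 and 0.185 CPM, the usual scaling of counts by library size. Unless stated otherwise, CPM values are after scaling by edgeR's TMM method. The tissue carried its defining transcripts, with the photoreceptor gene *Nrl* at 364 to 561 CPM in *Mettl3*-CKO and 641 to 960 CPM in control samples. *Nrl* was itself called lower in *Mettl3*-CKO retinas (log2 fold change -0.79, adjusted p = 0.00861 from edgeR). The targeted gene *Mettl3* was at 21.1 to 29.6 CPM in *Mettl3*-CKO and 29.2 to 33.7 CPM in control samples, a log2 fold change of -0.38 that did not pass the test (standard error, SE, 0.12, with an adjusted p = 0.0602 by the quasi-likelihood test of edgeR). Reads from every exon enter this count, including those outside a deleted segment, and their part in this value was not tested. The paper reported efficient loss of METTL3 protein in central retinas by immunostaining, and lower m6A on several genes by MeRIP-qPCR. Those are other measures than RNA of the retinal samples. There were 2 control samples that stood apart. Control replicate 4 carried lens transcripts (18 lens genes summed to 5835 CPM, against 8.80 to 114 CPM in the other samples), and control replicate 1 was high for the microglial genes. In the summed CPM of astrocyte and of pericyte genes, control replicate 1 was also the highest sample.

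None of the 9 microglial genes passed the test between *Mettl3*-CKO and control retinas. At an adjusted p under 0.05, edgeR called 0 of 9, where 10.5% of all tested genes were called in either direction (6.49% higher, 4.05% lower). At an unadjusted p under 0.05, 1 of the 9 (*Cx3cr1*) passed, against 24.6% of all tested genes, and DESeq2 called 0 of 9 (14.2% of all genes). Without the filter on low counts edgeR called 1 of 9 higher (*Cx3cr1*, where 3.86% of all genes were higher), and limma voom with sample quality weights called 7 of 9 higher (all but *Tmem119* and *Aif1*, where 11.9% of all genes were higher). All 9 log2 fold changes lay above 0, as did 48.2% of those of all tested genes. The 9 genes share the same libraries and varied together, so their signs and calls are not 9 separate observations. They ran from 0.13 for *P2ry12* to 0.63 for *Cx3cr1*, with a median of 0.38, where the median of all tested genes was -0.01. For each of the 9 genes, control replicate 1 was the highest of the 4 controls, as it was for 39.7% of all tested genes, and control replicate 3 the lowest, and control replicate 3 was also the lowest of all 8 samples. In bulk tissue, a change in the number of microglia and a change in RNA per microglial cell cannot be told apart.

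**Figure D1:**
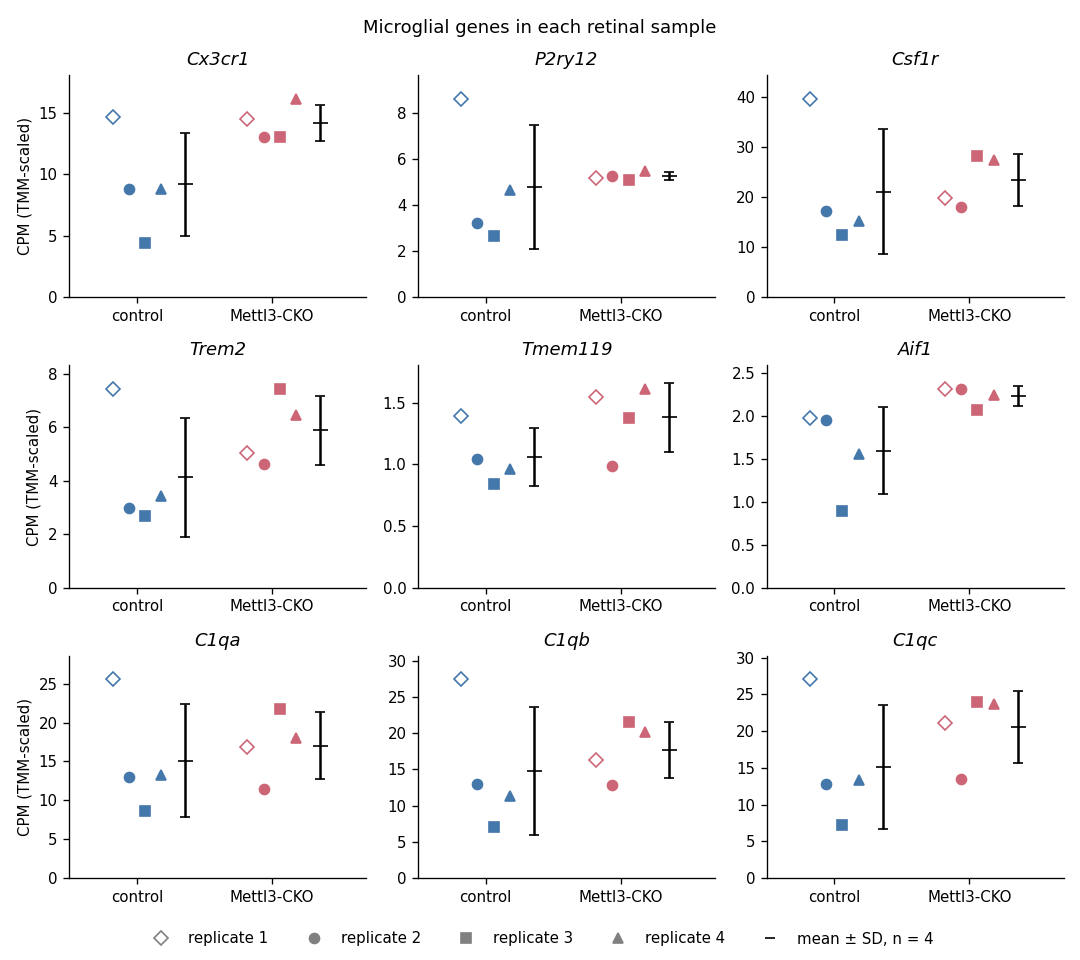
Level of each of the 9 microglial genes (vertical axis, TMM-scaled CPM from 0) in the 4 control and 4 *Mettl3*-CKO samples, with 1 marker shape per replicate number, open diamonds for replicate 1, and the mean ± SD (n = 4) in black. In each panel control replicate 1 is the highest control, and the *Mettl3*-CKO samples lie above the controls without overlap only for *Aif1*.

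Of the 4 receptors, *Cx3cr1* showed the largest difference with all 8 samples. It encodes the receptor through which microglia sense fractalkine (CX3CL1) on neurons. Its level was 14.6, 8.80, 4.45 and 8.84 CPM in controls 1 to 4 and 14.5, 13, 13 and 16.1 CPM in *Mettl3*-CKO samples 1 to 4. Each *Mettl3*-CKO sample exceeded 3 of the controls, and control replicate 1 lay among the *Mettl3*-CKO values. The mean was 14.2 ± 1.48 CPM in *Mettl3*-CKO and 9.18 ± 4.18 CPM in control retinas (SD, n = 4 each), a log2 fold change of 0.63 (SE 0.26, 95% interval 0.07 to 1.18, adjusted p = 0.150 from edgeR). *Cx3cr1* (ENSMUSG00000052336) lies on the minus strand of chromosome 9 from 119901616 to 120069879 (GRCm38), a span that overlaps 9 other annotated genes, one of which (*Gm33858*, opposite strand) shares exon positions with it.

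*Trem2* encodes a receptor for lipids and lipoproteins that signals through the adaptor TYROBP and is needed for microglial phagocytosis. Its level was 7.43, 2.99, 2.67 and 3.43 CPM in controls 1 to 4 and 5.02, 4.63, 7.43 and 6.44 CPM in *Mettl3*-CKO samples 1 to 4. The *Mettl3*-CKO samples lay above 3 controls, and the highest of them was level with control replicate 1 to the precision given. The mean was 5.88 ± 1.29 CPM in *Mettl3*-CKO and 4.13 ± 2.22 CPM in control retinas (SD, n = 4 each), a log2 fold change of 0.51 (SE 0.30, 95% interval -0.14 to 1.15, adjusted p = 0.325 from edgeR). *Trem2* (ENSMUSG00000023992) lies on the plus strand of chromosome 17 from 48346401 to 48354147 (GRCm38), where GENCODE vM21 lists no overlapping gene.

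*Csf1r* encodes the receptor for CSF1 and IL-34, on which the survival of microglia depends. It was at 39.6, 17.2, 12.4 and 15.2 CPM in controls 1 to 4 and 19.9, 18.1, 28.2 and 27.4 CPM in *Mettl3*-CKO samples 1 to 4. Control replicate 1 was the highest of the 8 samples, and the other 3 controls lay below all *Mettl3*-CKO samples. The log2 fold change was 0.15 (SE 0.30, 95% interval -0.50 to 0.80, adjusted p = 0.821 from edgeR), so that changes from 0.705-fold to 1.74-fold lay within the interval. *P2ry12* encodes the ADP receptor that directs microglial processes to injured cells. Its values in the *Mettl3*-CKO samples were closely alike, at 5.19, 5.27, 5.09 and 5.46 CPM, whereas control replicates 1 to 4 had 8.6, 3.24, 2.67 and 4.63 CPM. The *Mettl3*-CKO values thus fell inside the range of the controls, below replicate 1 and above the other 3, with a log2 fold change of 0.13 (SE 0.29, 95% interval -0.51 to 0.77, adjusted p = 0.839 from edgeR). Exons of both genes share positions with a gene on the opposite strand (*Hmgxb3* for *Csf1r* and *Med12l* for *P2ry12*), and without a stated strand setting their counts are less certain. The same limit holds for the counts of *Cx3cr1*, whose exons share positions with *Gm33858*. *Csf1r* (ENSMUSG00000024621) lies on the plus strand of chromosome 18 from 61105572 to 61132149 (GRCm38, as the deposited table gives it), and *P2ry12* (ENSMUSG00000036353) on the minus strand of chromosome 3 from 59216272 to 59262871 (GRCm38).

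*Aif1* and *Tmem119* are the genes behind the IBA1 and TMEM119 stains by which microglia are recognised in tissue. *Aif1*, which encodes an actin-binding protein of membrane ruffles, was the only 1 of the 9 genes whose groups did not overlap. It was at 1.98, 1.96, 0.890 and 1.56 CPM in controls 1 to 4 and 2.32, 2.32, 2.07 and 2.24 CPM in *Mettl3*-CKO samples 1 to 4. The gap between the lowest *Mettl3*-CKO and the highest control sample was small beside the counts, which ran from 17 to 46 reads per sample, and the exact 95% Poisson intervals of that pair of samples (28 to 53 reads around 39, and 26 to 51 around 37) overlapped widely. The log2 fold change was 0.49 (SE 0.27, 95% interval -0.09 to 1.06, adjusted p = 0.285 from edgeR), while the exact permutation test of its log2 CPM gave a two-sided p of 0.0286, the smallest that 4 samples against 4 allow. Groups without overlap always give that p, so it adds nothing to the lack of overlap, and it is not adjusted. For the other microglial genes the same test gave p from 0.114 (*Cx3cr1*) to 0.543 (*C1qa*). Groups that do not overlap with *Mettl3*-CKO higher were found for 9.77% of all tested genes, so 1 of 9 is near that background. *Aif1* (ENSMUSG00000024397) lies on the minus strand of chromosome 17 from 35170991 to 35176068 (GRCm38).

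*Tmem119*, a transmembrane protein made by microglia and not by most other macrophages, had the fewest reads of the 9, from 16 to 33 per sample. It was at 1.39, 1.04, 0.838 and 0.962 CPM in controls 1 to 4 and 1.55, 0.984, 1.38 and 1.61 CPM in *Mettl3*-CKO samples 1 to 4. *Mettl3*-CKO replicate 2 lay within the controls, and replicates 1 and 4 lay above all of them. The log2 fold change was 0.38 (SE 0.28, 95% interval -0.23 to 1.0, adjusted p = 0.455 from edgeR), so it did not pass the test. *Tmem119* (ENSMUSG00000054675) lies on the minus strand of chromosome 5 from 113793729 to 113800516 (GRCm38).

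*C1qa*, *C1qb* and *C1qc* encode the A, B and C chains that assemble into C1q, the recognition part of the classical complement pathway. They lie side by side on the minus strand of chromosome 4 (GRCm38), *C1qb* (ENSMUSG00000036905) from 136880129 to 136886187, *C1qc* (ENSMUSG00000036896) from 136889804 to 136893065 and *C1qa* (ENSMUSG00000036887) from 136895917 to 136898803, with no other gene overlapping any of them in GENCODE vM21. Since the 3 chains varied together across samples, the sequence before their start sites was searched for the core of the binding site of PU.1, the myeloid transcription factor encoded by *Spi1*. The search used GAGGAAGT and the shorter GGAAGT that it contains, on both strands of the 250 bases before each RefSeq start. Promoters of 6 of the 9 microglial genes (*C1qb*, *C1qc*, *P2ry12*, *Cx3cr1*, *Aif1* and *Trem2*) were matched by symbol, while *C1qa*, *Tmem119* and *Csf1r* were not. GGAAGT was found before 3 of the 6 (*C1qb*, *C1qc* and *P2ry12*), against 19.7% of all 32851 promoters, and GAGGAAGT before 1 (*C1qc*), against 2.44% of all promoters. The matches before the C1q genes are shown with up to 30 bases on each side, from RefSeq on GRCm38.p6, 5′ to 3′ on the strand of the gene (minus), for *C1qb* at chr4:136886218-136886283 and for *C1qc* at chr4:136893072-136893139. Capitals mark the match, which reads on the opposite strand in both, and neither stretch overlaps an exon of GENCODE vM21.
*C1qb*: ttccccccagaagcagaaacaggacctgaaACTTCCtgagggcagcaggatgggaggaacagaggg
*C1qc*: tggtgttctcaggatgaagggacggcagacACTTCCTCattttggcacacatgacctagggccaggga
A match describes these letters only, and binding was not measured here.

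*C1qc* was at 27.0, 12.8, 7.28 and 13.4 CPM in controls 1 to 4 and 21.1, 13.5, 24.0 and 23.7 CPM in *Mettl3*-CKO samples 1 to 4. *C1qb* was at 16.3, 12.9, 21.5 and 20.1 CPM in *Mettl3*-CKO and at 27.4, 13, 7.12 and 11.4 CPM in control samples in the same order. *C1qa* was at 16.9, 11.4, 21.8 and 18.0 CPM in *Mettl3*-CKO and at 25.5, 13, 8.64 and 13.2 CPM in control samples. For all 3 chains control replicate 1 was the highest of the 8 samples, control replicate 3 the lowest, and *Mettl3*-CKO replicate 2 the lowest of its group, and the groups overlapped. The log2 fold changes were 0.44 for *C1qc* (SE 0.31, 95% interval -0.22 to 1.11, adjusted p = 0.417 from edgeR), 0.26 for *C1qb* (SE 0.32, 95% interval -0.42 to 0.95, adjusted p = 0.664 from edgeR) and 0.17 for *C1qa* (SE 0.28, 95% interval -0.43 to 0.77, adjusted p = 0.762 from edgeR). None exceeded the spread between samples.

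Control replicate 1 exceeded the mean of the other 3 controls by a factor of 1.34 for *Aif1*, 1.47 for *Tmem119*, 1.99 for *Cx3cr1* and up to 2.66 for *Csf1r*, with a median of 2.42 over the 9 genes, where the median over all tested genes was 1.01. In log2 CPM it was the highest of all 8 samples for 5 of the 9 genes (25.9% of all tested genes). When it was left out, a choice made with these values known, 5 of the 9 genes were called higher in *Mettl3*-CKO retinas, where 10.3% of all tested genes were called higher. These were *Cx3cr1* (log2 fold change 0.95, SE 0.20, adjusted p = 0.00415 from edgeR), *Trem2* (0.96, SE 0.20, adjusted p = 0.0052), *C1qc* (0.89, SE 0.21, adjusted p = 0.00976), *Csf1r* (0.65, SE 0.16, adjusted p = 0.0127) and *C1qb* (0.76, SE 0.20, adjusted p = 0.0163). *P2ry12* (0.58, adjusted p = 0.0503), *C1qa* (0.56, adjusted p = 0.0602), *Aif1* (0.62, adjusted p = 0.133) and *Tmem119* (0.55, adjusted p = 0.220) did not pass in that edgeR fit. The median of the 9 was then 0.65, against -0.00254 for all tested genes. Leaving out any other single sample gave 0 calls among the 9. Without control replicate 3, the sample with the least of each gene, the log2 fold changes lay between -0.06 (*P2ry12*) and 0.40 (*Cx3cr1*), with *P2ry12*, *Csf1r* (-0.03) and *C1qa* (-0.01) on the other side of 0. Without control replicate 2, *P2ry12* was at -0.01. Without control replicates 1 and 4 together, 6 of the 9 were called higher, the 5 above and *P2ry12*, where 6.25% of all tested genes were.

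**Figure D2:**
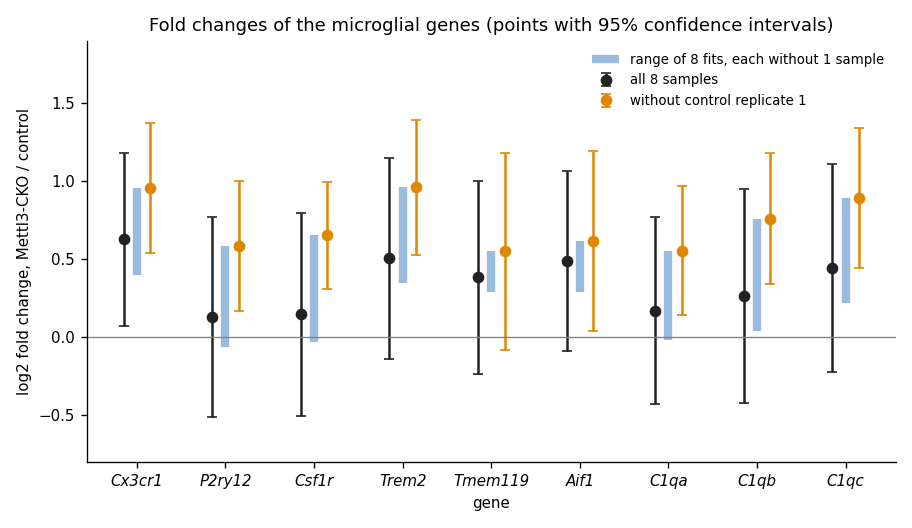
Log2 fold change of *Mettl3*-CKO over control (vertical axis) for each microglial gene, from edgeR with all 8 samples (black) and without control replicate 1 (orange), with 95% confidence intervals, and in blue the range over the 8 fits that each left out 1 sample. With all 8 samples the intervals include 0 for each gene but *Cx3cr1*, and without control replicate 1 they include 0 only for *Tmem119*.

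Levels were compared between genes per length, as FPKM, which divide each count by the length of the gene and the total count of the sample. In controls *C1qa* (14.4 ± 6.61 FPKM) and *C1qb* (13.4 ± 7.71) were highest, followed by *C1qc* (7.76 ± 4.14), *Csf1r* (4.27 ± 2.43), *Cx3cr1* (2.02 ± 0.884), *P2ry12* (1.86 ± 0.999), *Aif1* (1.04 ± 0.325), *Trem2* (0.827 ± 0.424) and *Tmem119* (0.454 ± 0.0930), each as mean ± SD over n = 4. The order of the means was the same in *Mettl3*-CKO retinas, from 16.4 ± 4.10 FPKM for *C1qa* to 0.598 ± 0.125 for *Tmem119* (SD, n = 4). Neighbours in this order overlapped in their ranges in the controls without exception, so the order was also read within each sample. *C1qb* exceeded *C1qc*, *C1qc* exceeded *Csf1r*, *Csf1r* exceeded *Cx3cr1* and *Trem2* exceeded *Tmem119* in all 8 samples. *C1qa* exceeded *C1qb* in 5 of 8, *Cx3cr1* exceeded *P2ry12* in 6, *P2ry12* exceeded *Aif1* in 7 and *Aif1* exceeded *Trem2* in 6, so these neighbours were not parted in every sample. The same gene length enters all 8 samples, so agreement between samples does not test it. By mean CPM *C1qc* was above *C1qb*, at 20.6 against 17.7 in *Mettl3*-CKO and 15.1 against 14.7 in control retinas. Their order in FPKM thus rests on the lengths of 1931 and 1088 bases. *Csf1r*, of 4885 bases, was likewise above *C1qc* by mean CPM, at 23.4 against 20.6 in *Mettl3*-CKO and 21.1 against 15.1 in control retinas. *Trem2* was above *Aif1*, at 5.88 against 2.24 in *Mettl3*-CKO and 4.13 against 1.60 in control retinas. The order of that pair in FPKM rests on lengths of 4946 and 1532 bases. As a share of the summed FPKM of the 9 genes, *C1qa* took 31.8% ± 1.61 in controls and 28.7% ± 2.10 in *Mettl3*-CKO retinas, *C1qc* 16.6% ± 1.03 and 18.7% ± 1.35, and *Cx3cr1* 4.46% ± 0.554 and 5.72% ± 1.10 (SD, n = 4 each).

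**Figure D3:**
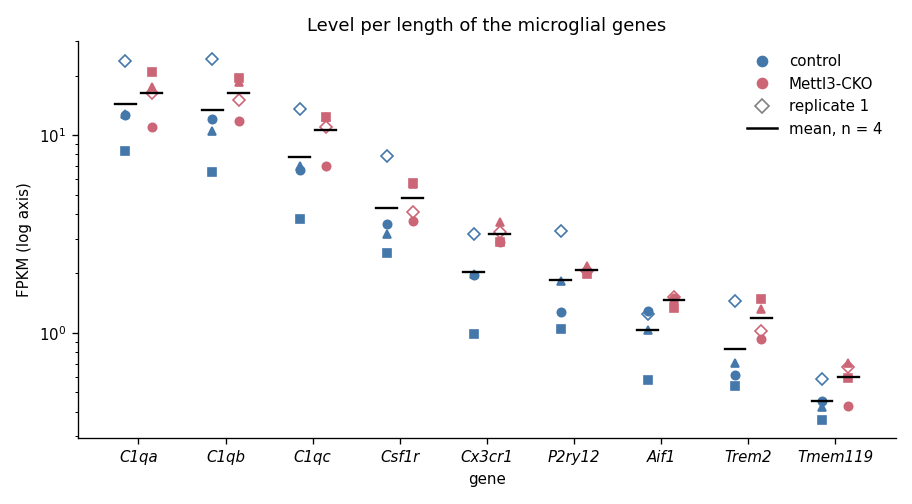
FPKM of each microglial gene on a log axis, in the order of the control means, for control (blue) and *Mettl3*-CKO (red) samples, with open diamonds for replicate 1 and black lines for the mean of 4 samples. The 3 C1q chains are highest and *Tmem119* lowest in both groups, with control means of 14.4 FPKM for *C1qa* and 0.454 FPKM for *Tmem119*.

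The rest of the microglial and myeloid program was examined with 28 further genes, all of which were tested. None was called in either direction by edgeR with all 8 samples, 2 had an unadjusted p under 0.05 (*Gpr34*, a lysophospholipid receptor, and *Slc2a5*, a fructose transporter, the latter with a log2 fold change of -0.63), and DESeq2 called 1 higher. Of the 28 log2 fold changes 21 lay above 0, as did 48.2% of those of all tested genes, with a median of 0.15. These genes share the same libraries too and are not 28 separate observations. *Mpeg1*, which encodes the pore-forming protein perforin-2 of macrophages, was at 34.8, 23.5, 14.5 and 20.5 CPM in controls 1 to 4 and 30.3, 24.5, 30.7 and 30.6 CPM in *Mettl3*-CKO samples 1 to 4 (log2 fold change 0.31, SE 0.20, adjusted p = 0.378 from edgeR). *Ctss*, the lysosomal protease cathepsin S, had a log2 fold change of 0.09 (SE 0.27, adjusted p = 0.880 from edgeR). In both genes, control replicate 1 was the highest and control replicate 3 the lowest of the controls.

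Without control replicate 1, 6 of the 28 were called higher and 0 lower, where 10.3% of all tested genes were called higher, and the median log2 fold change was 0.52, against -0.00254 for all tested genes. Among them were *Gpr34* (1.44, adjusted p = 0.00412 from edgeR), *Fcrls* (1.05, adjusted p = 0.00563), *Adgre1* (1.10, adjusted p = 0.00897), *Mpeg1* (0.58, adjusted p = 0.0118) and *Tyrobp* (0.80, adjusted p = 0.0190), of which *Gpr34*, *Adgre1* and *Tyrobp* are named because of these values. *Adgre1* encodes the macrophage antigen F4/80, *Tyrobp* the adaptor of TREM2 and *Fcrls* an Fc receptor-like protein of microglia. Not every myeloid gene moved with them. *Cd68*, a lysosomal membrane protein of phagocytes, and *Runx1*, a transcription factor, had log2 fold changes of -0.16 and -0.13 with all 8 samples and of -0.15 and -0.08 without control replicate 1, and neither passed the test.

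Among 11 ligands and signalling partners of the microglial receptors, 1 rose and 1 fell, and DESeq2 called 1 higher and 0 lower. Of all tested genes, edgeR called 6.49% higher and 4.05% lower. *Csf1*, the ligand of CSF1R made by many cell types, was at 6.41, 7.39, 5.29 and 6.56 CPM in controls 1 to 4 and 10.7, 8.68, 8.43 and 8.78 CPM in *Mettl3*-CKO samples 1 to 4. The groups did not overlap, and *Csf1* rose by a log2 fold change of 0.51 (SE 0.15, adjusted p = 0.0430 from edgeR), but it was called in only 1 of the 8 fits that left out a sample (without control replicate 1), with values between 0.43 and 0.59. *Il34*, the other ligand of CSF1R and a product of neurons, was at 0.221, 0.289, 0.212 and 0.244 CPM in *Mettl3*-CKO and at 0.695, 0.611, 0.681 and 0.541 CPM in control samples, from 4 to 5 and from 9 to 13 reads. It fell, with a log2 fold change of -1.37 (SE 0.36, adjusted p = 0.0314 from edgeR). With so few reads it passed the filter in 6 of the 8 fits that left out a sample and the call in none of them, at values between -1.46 and -1.31. *Cx3cl1*, the neuronal ligand of CX3CR1, had a log2 fold change of -0.46 and did not pass the test (SE 0.16, adjusted p = 0.0952 from edgeR), though it did without control replicate 3 (-0.58, adjusted p = 0.0333). *Apoe*, a lipoprotein bound by TREM2 that Müller glia also make, was at 305 ± 52.6 CPM in *Mettl3*-CKO and 319 ± 85.8 CPM in control retinas (SD, n = 4 each) and did not pass the test.

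Of 18 other complement genes, 12 were tested and 1 was called, where 10.5% of all tested genes were called in either direction. That gene, *C1ql1*, encodes a secreted C1q-like protein of neurons and is not part of the complement cascade. It fell from 36.5 ± 0.839 to 25 ± 3.76 CPM (SD, n = 4 each), a log2 fold change of -0.55 (SE 0.11, adjusted p = 0.00875 from edgeR), and was called in all 8 fits that left out a sample. *C3*, the central component of the cascade, and *Serping1*, the inhibitor of C1, had log2 fold changes of 0.10 and 0.11 and did not pass the test. Without control replicate 1, *C3ar1*, the receptor for C3a, was called higher (1.21, adjusted p = 0.0246 from edgeR, against 0.87 and 0.162 with all 8 samples), named because of that value.

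Of 19 genes linked to activated or phagocytic microglia, 15 were tested, 2 rose and 1 fell, with a median log2 fold change of 0.11. Of the 15 log2 fold changes, 9 lay above 0. Over all tested genes, 6.49% were called higher and 4.05% lower. *Axl*, a receptor tyrosine kinase for the uptake of dying cells, rose from 19.6 ± 0.347 to 28.5 ± 4.07 CPM (SD, n = 4 each), a log2 fold change of 0.54 (SE 0.11, adjusted p = 0.00962 from edgeR), and was called in all 8 fits that left out a sample. *Igf1*, a growth factor that microglia and other cells secrete, was at 29.0, 19.5, 20.1 and 19.2 CPM in controls 1 to 4 and 36.3, 31.0, 37.1 and 31.3 CPM in *Mettl3*-CKO samples 1 to 4. It rose by 0.63 on the log2 scale (SE 0.14, adjusted p = 0.0130 from edgeR) and was called in 7 of 8 such fits, the exception being that without *Mettl3*-CKO replicate 1. *Cd9*, a tetraspanin that glia and other cells also express, fell by 0.67 on the log2 scale (SE 0.13, adjusted p = 0.00619 from edgeR). All 3 are made by cells other than microglia too, and which cells carried the difference was not tested. *Ctsb* and *Ctsd*, lysosomal proteases of all cells, did not pass the test with all 8 samples, and were higher without control replicate 1 (0.36, adjusted p = 0.0150, and 0.34, adjusted p = 0.0276, from edgeR). In that fit 5 of the 15 rose and 1 fell, where 10.3% of all tested genes were called higher. *Clec7a*, at 7 to 61 reads per sample, was 1 of the 5 (1.64, adjusted p = 0.0100 from edgeR). With all 8 samples its log2 fold change of 1.07 was the largest of the list and did not pass the test (adjusted p = 0.157 from edgeR). *Gpnmb* (-0.36), *Spp1* (-0.15), *Fabp5* (-0.10), *Apoe* (-0.06) and *Cst7* (-0.03) lay below 0 with all 8 samples and did not pass the test. *Il1b*, *Tnf*, *Ccl3* and *Ccl4* had 0 to 9 reads per sample and were not tested.

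Markers of other macrophages and of blood leukocytes were low. The 16 genes of that list summed to between 3.88 and 4.63 CPM in *Mettl3*-CKO and between 4.63 and 6.95 CPM in control samples, and 1 of them (*H2-Ab1*, an MHC class II chain) was tested, at 44 to 86 reads per sample, with a log2 fold change of -0.47 that did not pass the test (SE 0.18, adjusted p = 0.134 from edgeR). The macrophage marker *Mrc1* had 0 to 10 reads per sample, *Ccr2* of monocytes 0 to 2, and *Cd163* was at 0 in 7 of 8 samples. In comparison, the 9 microglial genes summed to 82.1 to 124 CPM in *Mettl3*-CKO samples, to 46.9 to 74.1 CPM in control replicates 2 to 4 and to 154 CPM in control replicate 1. The 28 further microglial and myeloid genes summed to 147 to 198, 103 to 141 and 237 CPM in the same order. Control replicate 1 thus exceeded the mean of the other controls by a factor of 2.38 for the 9 genes and 1.87 for the 28.

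For other non-neuronal lists, the summed level in the same sample was 1.96 times the mean of the other controls for 5 astrocyte genes, 1.94 times for 6 pericyte genes, 1.11 times for 6 genes of the retinal pigment epithelium, 0.925 times for 10 endothelial genes and 0.660 times for 5 erythrocyte genes. For the 18 lens genes it was 0.0585 times, with control replicate 4 among the others. The endothelial sum was mostly *Kdr*, at 480 CPM in control replicate 1 and 528 to 622 CPM in the other controls. Each other endothelial gene had its highest control value in control replicate 1, such as *Pecam1* at 12.4 CPM against 3.43 to 4.71 CPM. Most tested markers of endothelial cells and astrocytes were lower in *Mettl3*-CKO retinas. Over all tested genes, 4.05% were called lower and 6.49% higher. Of 9 tested endothelial genes 7 fell and none rose, with *Flt1*, a VEGF receptor, at -1.34 (SE 0.22, adjusted p = 0.00282 from edgeR), and 6 fell without control replicate 1. The number was 3, 2 and 2 without *Mettl3*-CKO replicates 1, 2 and 3. The summed level of the 10 endothelial genes overlapped between the groups (541 to 639 CPM in *Mettl3*-CKO and 562 to 657 CPM in control samples). Most of that sum was *Kdr* (log2 fold change 0.02, SE 0.10, adjusted p = 0.921 from edgeR), so the overlap says little about the other genes. Of the 9 tested, only *Kdr* lay above 0, and the median log2 fold change was -1.31. Of 5 astrocyte genes 3 fell and none rose, with *Aldoc*, a glycolytic enzyme of astrocytes, at -1.15 (SE 0.23, adjusted p = 0.00913 from edgeR), and 1 fell without *Mettl3*-CKO replicate 2. Their summed level was 63.2 to 97.7 CPM in *Mettl3*-CKO and 119.5 to 264.7 CPM in control samples, without overlap. Of 5 tested pericyte genes 2 rose and 2 fell, and the number that fell was 0, 3, 1 and 1 without *Mettl3*-CKO replicates 1 to 4. Of 3 tested erythrocyte genes 2 fell, and leaving out 1 sample gave 2 to 4, with 4 without *Mettl3*-CKO replicate 2. The part of these differences in tissue make-up in the values of the microglial genes was not tested.

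**Figure D4:**
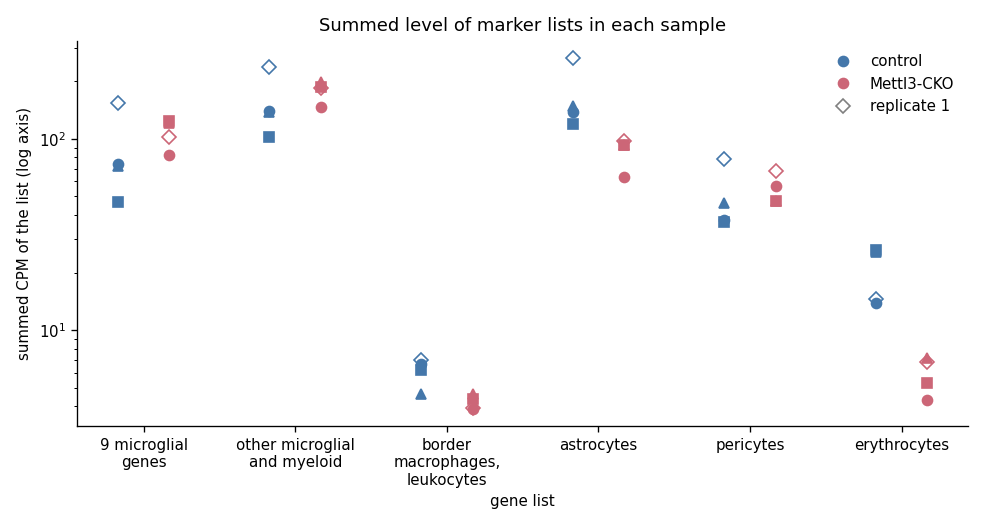
Summed CPM of 6 gene lists on a log axis in each control (blue) and *Mettl3*-CKO (red) sample, with open diamonds for replicate 1. Control replicate 1 is highest for the 9 microglial genes (154 CPM) and the 28 further myeloid genes (237 CPM). It is also the highest sample for the astrocyte (265 CPM), pericyte (78.1 CPM) and border macrophage and leukocyte (6.95 CPM) lists. The astrocyte and erythrocyte lists are lower in each *Mettl3*-CKO sample than in each control.

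After subtracting group means from log2 CPM, the correlation between 2 of them over the 8 samples ran from 0.46 to 0.98 over 36 pairs (median 0.85), and from 0.22 to 0.97 without control replicate 1 (median 0.69). These values share libraries, describe the samples only and follow mainly the controls, whose spread was the larger for 8 of the 9 genes. In *Mettl3*-CKO retinas, *Aif1* and *P2ry12* were lowest in replicate 3, where the 3 C1q chains were highest. The 28 further myeloid genes had a median correlation of 0.88 with the mean profile of the 9, where all 17989 other tested genes had a median of 0.03, and without control replicate 1 the medians were 0.80 and -0.01. Of the 10 genes with the highest correlation over 8 samples, *Fcrls* (0.99) and *Mpeg1* (0.98) belong to the myeloid list. The others were *Smim26*, *Cdkl2*, *Cyth4*, *Cep290*, *Arhgap29*, *Cfap61*, *Ndufs1* and *Actr10*, from 0.98 upward. Of the 100 highest, 6 belonged to the myeloid list.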

How the data were processed

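RNA-seq covered 8 retinal samples, 4 control and 4 *Mettl3*-CKO. The authors used NEBNext Ultra library kits, aligned the filtered reads to GRCm38 by Hisat2, ran featureCounts and deposited the raw counts of each gene. The annotation release and the strand setting are not given in the sources used here. Samples were matched to columns by their labels.

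Counts were analysed in R 4.3.3 with edgeR 4.0.16 (filterByExpr, TMM, glmQLFit and glmQLFTest over all genes, Benjamini-Hochberg adjustment, threshold 0.05). The common biological coefficient of variation was 15.0%. The standard error is the absolute log2 fold change over the root of the F statistic. DESeq2 1.42.0, limma 3.58.1, other scalings and filters, a replicate block and fits without single samples were alternatives. The functions were tested on simulated counts. No pair of samples was counted as 1, since the lowest chi-square was 5.49 per gene. Log2 CPM used a prior count of 2. Intervals cover counting error only where they are Poisson intervals.

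The 9 genes, the lists and the tests were chosen with earlier results of these data known. Named are the 9 genes, and of each other list called genes (up to 6, by size of change) and the 3 highest in CPM, though not all of these are described, and the 10 genes most correlated with the 9. *Nrl*, *Gpr34*, *Slc2a5*, *Adgre1*, *Tyrobp*, *Cd68*, *Runx1*, *Cx3cl1*, *C3*, *C3ar1*, *Clec7a*, *Ctsd*, *Gpnmb*, *Spp1*, *Cst7*, *Il1b*, *Tnf*, *Ccl3*, *Ccl4*, *Kdr* and the macrophage markers were chosen after their values were seen. Some genes of these lists are not reported here by name.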

Additional observations from a re-analysis of the deposited data

Results flagged for a closer look

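Dixon's test for 4 samples (critical ratio 0.829) was applied within each group to the log2 CPM of each microglial gene and to the log2 of the summed CPM of each gene list. It picked out a sample that lay far from the rest in 3 of 44 sets of values, and chance flags about 1 in 20. None of the 18 sets for a single microglial gene was among them. Control replicate 1 was high for the list of ligands and signalling partners, at 9.60 against 9.15 to 9.21 in the other controls, and for the list of activated and phagocytic microglia, at 10.5 against 9.94 to 10.01. These 2 flags are not independent, since *Apoe* is the most abundant gene of both lists. It was at 447 CPM in control replicate 1 and 273 to 279 CPM in the other controls. *Mettl3*-CKO replicate 2 was low for the astrocyte list, at 5.98 against 6.53 to 6.61 for the rest of its group.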

How the results depend on the processing

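With all 8 samples, the 9 log2 fold changes lay above 0 under each of the 9 other scalings, filters and tests, and 73 of these 81 values were not called. The exceptions were *Cx3cr1* without a filter on low counts (1 of the 9 called) and 7 of the 9 genes under limma voom with sample quality weights. Without control replicates 1 and 4 together, 6 of the 9 were called higher. Over the 8 fits that left out 1 sample, 0 to 5 of the 9 and 0 to 6 of the 28 further myeloid genes were called higher, and 0 of either lower. In the same fits the log2 fold change of *P2ry12* ran from -0.064 to 0.58, with -0.010 without control replicate 2, that of *Csf1r* from -0.032 to 0.65 and that of *C1qa* from -0.014 to 0.56, each lowest without control replicate 3. Of the 28, 1 was called without a filter, 1 by DESeq2, 1 with the replicate block, 7 under voom and 7 without control replicates 1 and 4. Over all genes, 1168 were higher and 729 lower, 2142 and 1568 under voom, and 509 to 1882 higher and 185 to 1289 lower over the fits that left out 1 sample, with the fewest when *Mettl3*-CKO replicate 1 was left out and the most when control replicate 1 was. Why voom gave more calls was not tested. With the replicate number as a block, 1198 genes were higher and 660 lower, none of the 9 was called, and *Cx3cr1* was at 0.71. Whether equal numbers mark paired samples is not stated in the sources used here. The deviations of same-numbered samples had correlations of -0.111, 0.215, -0.114 and 0.249 for numbers 1 to 4. Samples numbered 2 and 4 correlated best with their own number, and those numbered 1 and 3 did not. With 4 samples per group these values cannot exclude a pairing, and the main fit used none. The 18 mean FPKM values moved by less than 1 SD with TMM-scaled totals. Depth limits genes with few reads, such as *Tmem119* (16 to 33 per sample).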
